A study of Mus musculus with 9 samples.

Results

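The erythroid and embryonic globin genes were a set of 8 named genes of red cells, compared in mouse hearts at postnatal day 2 over 3 genotypes. They were the embryonic globins *Hba-x*, *Hbb-y* and *Hbb-bh1*, the haem synthesis gene *Alas2*, the globin chaperone *Ahsp*, the membrane genes *Slc4a1* and *Epb42*, and the transcription factor *Klf1*. The rule takes the members by name and uses no threshold on their values, although earlier results of these data were known when they were chosen. A member was measured by its probe set listed for a single gene symbol, and by the brightest of them on average where there were several. Of the 8 members, 6 had such a probe set, among 22180 genes measured in the same way. *Alas2* lay only on a probe set shared with *Apex2*, a DNA repair gene, and is described apart. *Ahsp*, whose protein binds free alpha globin, is not analysed here.

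Hearts came from *miR-1-1* null mice, which lack both copies of *miR-1-1* and keep *miR-1-2*, from double-heterozygous mice, which carry *miR-1-2*+/- with *miR-1-1*+/- and so lack 1 copy at each locus, and from wild-type mice. All were on a mixed 129 x C57BL/6 background and untreated, with 3 arrays per genotype. *miR-1* is a microRNA enriched in heart and skeletal muscle. The deletions were carried through the germline and were therefore not limited to heart muscle. The labels do not say whether an array held 1 heart or several, and the array methods mention no step to remove blood, so p-values measure only the spread between these samples.

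Red cells form in successive waves. The first, primitive wave arises in the yolk sac and makes embryonic haemoglobin from *Hba-x* (zeta globin), *Hbb-y* (epsilon-y globin) and *Hbb-bh1* (beta-h1 globin). Definitive red cells, from the fetal liver and later the spleen and bone marrow, carry adult alpha and beta globin. A mature mammalian red cell has no nucleus, while a young one released into the blood (a reticulocyte) still holds globin mRNA.

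*Klf1* encodes an erythroid transcription factor that binds CACCC elements such as the one in the adult beta globin promoter. The promoter stretches below are shown for that element. RefSeq gave a promoter (GRCm38.p6, 250 bases before to 50 bases after the start) for 5 of the 8 members, *Hba-x*, *Hbb-y*, *Alas2*, *Epb42* and *Klf1*. Each stretch has 30 bases on the gene's own strand, read 5′ to 3′, with CACCC or its reverse complement GGGTG in capitals. An adult alpha globin (*Hba-a1*) and an adult beta globin (*Hbb-bs*) are given for comparison.
*Hba-x*, chr11:32276493-32276522, plus strand: gataacaggctcCACCCtgcaagccccctc
*Hbb-y*, chr7:103853301-103853330, minus strand: atgacctggctcCACCCatgaggaccacgg
*Alas2*, chrX:150547375-150547404, plus strand: ggGGGTGGGGTGGGGTGggcggggctgagc
*Klf1*, chr8:84901856-84901885, plus strand: acatatcgcacaCACCCctcctttgccgtt
*Hba-a1*, chr11:32283600-32283629, plus strand: caagggcgtgtcCACCCtgcctggaggaca
*Hbb-bs*, chr7:103828001-103828030, minus strand: tccgtagagccaCACCCtggtaagggccaa

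The element nearest to the start began 95 bases before it in *Hba-x*, 111 in *Hbb-y* and 114 in *Klf1*, against 60 in *Hba-a1* and 90 in *Hbb-bs*. In *Alas2* the nearest of 3 adjoining matches lay on the other strand, 30 bases before the start. The promoter window of *Epb42* held none of these letters. CACCC occurred in 57.5% of 32851 RefSeq promoters of this length when both strands were read, and upstream of the start in 4 of the 5 members with a window. GATA, the core of the sites read by Gata1, was present in all 5 windows and in 57.9% of promoters. CCAAT was found 83 bases before the start in *Hbb-y* and 64 in *Klf1*, against 88 in *Hba-a1* and 76 in *Hbb-bs*, and in 37.4% of promoters. TATAA lay 28 bases before the start in *Hba-x*, against 27 in *Hba-a1* and 29 in *Hbb-bs*, and occurred in 24.9% of promoters. It was also present farther from the start in *Alas2* (207 bases) and *Epb42* (125 bases, other strand). These letters are matches only, and overlaps between different motifs were not removed.

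The arrays were alike as a whole, with correlations of 0.982 to 0.988 between pairs of arrays over all genes. The probe set of the deleted gene, *Mir1a-1*, was dim on every array, at 1.06, 0.95 and 1.29 in *miR-1-1* null hearts, 1.52, 1.46 and 0.92 in double-heterozygous hearts and 1.29, 1.85 and 2.21 in wild-type hearts, on the log2 scale. *Mir133a-2*, from the same locus, was at 4.51, 3.79 and 3.07 in *miR-1-1* null hearts, below the 5.33 to 6.32 of double-heterozygous and the 5.45 to 6.38 of wild-type hearts (adjusted p = 0.533 against wild-type, limma over all genes). Heart muscle genes were bright, at mean log2 levels of 7.21 to 11.7 for 12 of 12 markers. Signal of *Xist*, RNA of the inactive X chromosome, was present on 2 arrays, double-heterozygous replicate 7 and wild-type replicate 1 (8.31 and 7.74), and at 1.22 to 1.96 on the other 7, so no *miR-1-1* null array carried it. The labels give no sex.

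The embryonic globins gave little signal in any heart. Because levels of different probe sets are not amounts that can be compared, the dim end of the arrays was described with 1394 genes of olfactory and vomeronasal receptors, which serve smell and pheromone sensing. Over all arrays these receptor genes had a lower quartile of 1.08, a median of 1.34 and an upper quartile of 1.79 on the log2 scale, with a 95th percentile of 3.14. Their median was 1.41 in double-heterozygous hearts, against 1.31 in *miR-1-1* null and 1.31 in wild-type hearts. The upper quartiles were 1.95, 1.78 and 1.74 in that order. Whether the estimates of dim members follow this difference was not tested. *Hba-x* had a mean level of 1.19, with 36.3% of the receptor genes below it. *Hbb-bh1* had 40.4% of them below it and *Hbb-y* 76.0%. The zeta and beta-h1 globin probe sets thus lay in the middle of the receptor range, and the epsilon-y globin set just above its upper quartile.

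*Hba-x*, the embryonic alpha-like globin, was at 1.37, 1.19 and 0.99 in *miR-1-1* null hearts, 1.08, 1.19 and 1.21 in double-heterozygous hearts and 1.19, 1.27 and 1.19 in wild-type hearts. The 3 genotypes overlapped, and the highest and lowest arrays were both *miR-1-1* null. The genotype means were 1.18 ± 0.19, 1.16 ± 0.067 and 1.22 ± 0.049 in that order (log2, SD, n = 3 each). They lay closer together than the arrays of the *miR-1-1* null group did among themselves.

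*Hbb-y*, the embryonic beta-like globin of yolk sac red cells, was at 1.98, 1.497 and 1.75 in *miR-1-1* null hearts, 2.00, 2.00 and 1.75 in double-heterozygous hearts and 1.36, 2.29 and 1.75 in wild-type hearts. Wild-type arrays held both the lowest and the highest value, a span of 0.92 on the log2 scale that takes in the mutant arrays. The genotype means were 1.74 ± 0.24 in *miR-1-1* null, 1.92 ± 0.14 in double-heterozygous and 1.80 ± 0.46 in wild-type hearts (log2, SD, n = 3 each).

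*Hbb-bh1*, which is also made by the primitive wave, was at 1.09, 1.29 and 1.118 in *miR-1-1* null hearts, 1.16, 1.25 and 1.62 in double-heterozygous hearts and 1.17 on all 3 wild-type arrays. The highest value belonged to double-heterozygous replicate 9, while the other double-heterozygous arrays lay among those of the other genotypes. The means were 1.17 ± 0.11 in *miR-1-1* null, 1.34 ± 0.24 in double-heterozygous and 1.17 in wild-type hearts (log2, SD, n = 3 each), the last with no spread.

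Identical values of that kind were not limited to *Hbb-bh1* in the deposited table. All 6 measured members had the same value, within 1e-06, on at least 2 of the 9 arrays, and 5 arrays shared a single value of *Epb42*. Over all genes, 40.1% had a pair of equal values within a genotype. A spread of 0 in such a group is a limit of these values, and limma's moderated variance, which borrows from all genes, was used for every interval below.

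The membrane genes differed in how far they stood above the dim range. *Slc4a1*, which encodes band 3, the anion exchanger of the red cell membrane, was the brightest measured member and the only one at or above the median gene (2.88 on the log2 scale). Its arrays read 3.43, 3.37 and 3.48 in *miR-1-1* null hearts, 3.48, 3.48 and 3.53 in double-heterozygous hearts and 3.57, 3.47 and 3.68 in wild-type hearts. All *miR-1-1* null arrays were in the lower part of the range, but the highest of them was above the lowest wild-type array, so the groups overlapped. The means were 3.43 ± 0.059 in *miR-1-1* null, 3.50 ± 0.026 in double-heterozygous and 3.57 ± 0.11 in wild-type hearts (log2, SD, n = 3 each). *Slc4a1* stood above 96.6% of the receptor genes over all arrays, although the 95th percentile of those genes on the double-heterozygous arrays alone, 3.61, was above its mean there.

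*Epb42*, protein 4.2, which ties band 3 to the spectrin skeleton, was at 1.78 on all 3 *miR-1-1* null arrays. Double-heterozygous hearts were at 1.78, 1.89 and 1.81 and wild-type hearts at 1.72, 1.76 and 1.78. Of the receptor genes, 75% lay below its mean level. The means were 1.78 in *miR-1-1* null, 1.83 ± 0.054 in double-heterozygous and 1.76 ± 0.031 in wild-type hearts (log2, SD, n = 3 each), and all 3 genotypes shared the value of 1.78.

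*Klf1*, the erythroid transcription factor, showed the widest gap between genotype means among the members. It was at 2.00 on all 3 *miR-1-1* null arrays, at 1.74, 2.21 and 1.95 in double-heterozygous hearts and at 2.25, 2.55 and 2.00 in wild-type hearts. Wild-type replicates 1 and 2 were the highest of the 9 arrays, while wild-type replicate 3 was equal to the *miR-1-1* null arrays and lay within the double-heterozygous range. The means were 2.00 in *miR-1-1* null, 1.97 ± 0.24 in double-heterozygous and 2.27 ± 0.27 in wild-type hearts (log2, SD, n = 3 each). At 82.4% of receptor genes below it, its level was also in the dim part of the arrays.

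**Figure D1:**
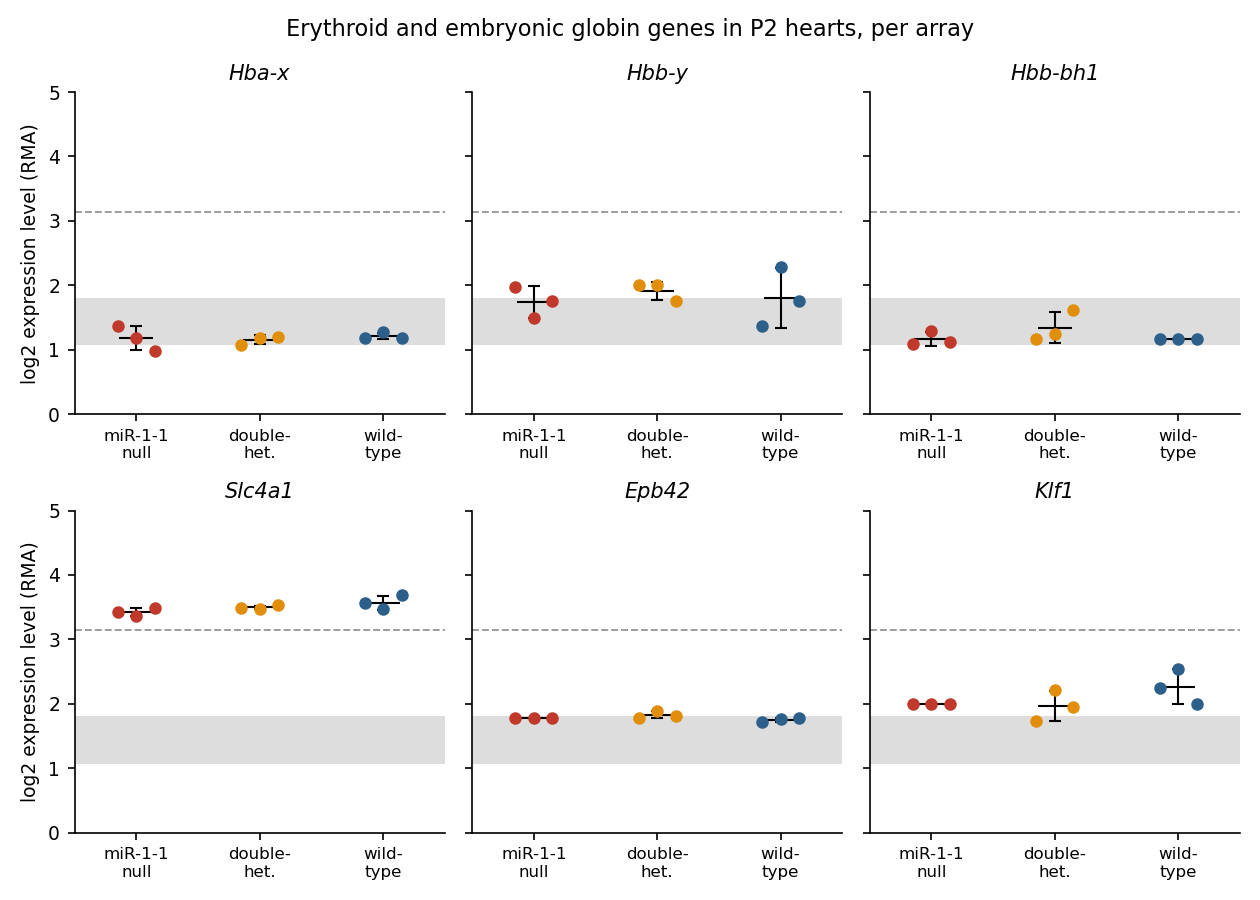
Log2 expression level (RMA) of the 6 measured members on each array, by genotype, with *miR-1-1* null, double-heterozygous and wild-type hearts from left to right. Points are arrays, bars are the mean ± SD of 3 arrays, the grey band spans the quartiles of the olfactory and vomeronasal receptor genes (1.08 to 1.79), and the dashed line is their 95th percentile (3.14). *Slc4a1* alone lies above the line, and within each panel the genotypes overlap.

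The first question of the design was whether the members differ between *miR-1-1* null and wild-type hearts. None of the 6 measured members was called. No member passed an adjusted p of 0.05 in limma, as none of all genes did (0% called higher and 0% lower). None passed an unadjusted p of 0.05 either, against 2.57% of all genes higher and 3.15% lower, and none had arrays without overlap, against 3.63% and 4.63% of all genes. At the methods' thresholds (an unadjusted p under 0.0025 with a fold above 1.5 or below 0.5) 0 members were called, against 0.0812% and 0.0451% of all genes, and the methods' t-test with adjustment also called none. *Klf1* had the largest estimate, a log2 fold change of -0.26, with a 95% interval of -0.62 to 0.09 and an adjusted p of 0.912. The estimate for *Slc4a1* was -0.14 (-0.34 to 0.06), and the embryonic globins were at -0.03 for *Hba-x* (-0.28 to 0.21), -0.06 for *Hbb-y* (-0.55 to 0.44) and 0.00 for *Hbb-bh1* (-0.28 to 0.28). *Epb42* was at 0.03 (-0.15 to 0.21). Of the 6 estimates, 2 were above 0 and 4 below, against 48% and 52% of all genes, and their median was -0.045 against -0.0066 for all genes.

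The second comparison set double-heterozygous hearts against the same wild-type arrays. Again 0 of 6 members passed an adjusted p of 0.05, where 0.0135% of all genes were called higher and 0.00451% lower, and 0 passed an unadjusted p of 0.05, where the shares of all genes were 4.45% and 6.15%. No member had arrays without overlap (5.15% of all genes higher, 7.95% lower), and the methods' thresholds (0.496% and 0.0451%) and the methods' t-test gave 0 as well. *Klf1* was lower by estimate, with a log2 fold change of -0.30 (95% interval -0.65 to 0.05, adjusted p = 0.531, limma), and the upper bound lay just above no difference. *Hbb-bh1* was at 0.18 (-0.11 to 0.46), *Hbb-y* at 0.12 (-0.38 to 0.61) and *Hba-x* at -0.06 (-0.31 to 0.19). The red cell membrane genes *Slc4a1* and *Epb42* were at -0.08 (-0.28 to 0.13) and 0.07 (-0.10 to 0.25). Estimates were above 0 for 3 members and below 0 for 3, against 44.6% and 55.4% of all genes, with a median of 0.0078 against -0.024.

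Because both mutant comparisons share the 3 wild-type arrays, the values of *Klf1* in them are not separate evidence. In the direct comparison of double-heterozygous with *miR-1-1* null hearts, *Klf1* was at a log2 fold change of -0.04 (-0.39 to 0.32). The other estimates were 0.17 for *Hbb-y* (-0.32 to 0.67), 0.18 for *Hbb-bh1* (-0.11 to 0.46), 0.07 for *Slc4a1* (-0.13 to 0.27), 0.04 for *Epb42* (-0.13 to 0.22) and -0.02 for *Hba-x* (-0.27 to 0.22). None passed an adjusted p of 0.05 (0% of all genes higher, 0% lower, lowest adjusted p of a member 0.785, limma) or an unadjusted one (3.59% and 3.79% of all genes). Nor did any by the methods' thresholds (0.293% and 0.00902% of all genes), by the methods' t-test, or by arrays without overlap (4.3% and 5.75%). Of the 6 estimates, 4 were above 0 and 2 below, against 45.4% and 54.5% of all genes, with a median of 0.056 against -0.018. The F test over the 3 genotypes called 0 members, against 0.018% of all genes, with 0 members at an unadjusted p under 0.05, against 8.53%. The lowest adjusted p of a member in the F test was 0.696, for *Klf1*.

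A missed threshold does not show equal levels, so the bounds of the intervals are given as folds. Over the 6 members the bounds ran between 0.652-fold and 1.35-fold for *miR-1-1* null over wild-type hearts, between 0.636-fold and 1.52-fold for double-heterozygous over wild-type hearts, and between 0.765-fold and 1.59-fold for double-heterozygous over *miR-1-1* null hearts. For probe sets near background these folds understate differences in RNA. Exact two-sided permutation tests of single members over 3 against 3 arrays gave p between 0.2 and 1, where the smallest p that this design allows is 0.1.

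**Figure D2:**
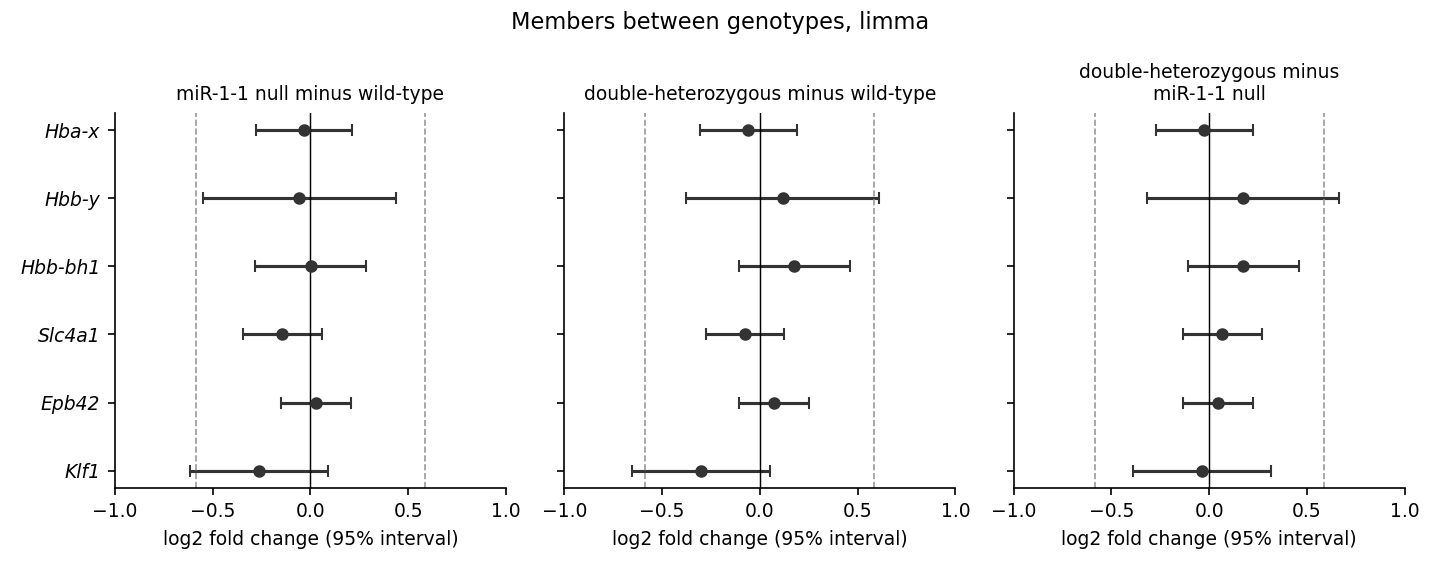
Log2 fold change of the 6 measured members in each comparison (limma, 9 arrays in one fit), where points are estimates, bars are 95% intervals and dashed lines mark a change of 1.5-fold in either direction. Every interval crosses 0, and *Klf1* has the lowest estimates against wild-type hearts, -0.26 for *miR-1-1* null and -0.30 for double-heterozygous hearts.

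*Alas2*, the erythroid form of the first enzyme of haem synthesis, could be read only together with *Apex2*. Their shared probe set was at 4.12, 3.85 and 4.10 in *miR-1-1* null hearts, 4.06, 4.08 and 3.73 in double-heterozygous hearts and 4.35, 4.30 and 3.97 in wild-type hearts. Wild-type replicates 1 and 2 were above all mutant arrays, while wild-type replicate 3 lay among them. The log2 fold change was -0.18 (95% interval -0.53 to 0.16, adjusted p = 0.927 over all probe sets, limma) for *miR-1-1* null and -0.25 (-0.59 to 0.10, adjusted p = 0.615) for double-heterozygous hearts, each against wild-type. The signal of the 2 genes cannot be told apart on this set.

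Adult globin mRNA, in contrast, was read brightly. The adult alpha genes *Hba-a1* and *Hba-a2* and the adult beta genes *Hbb-b1*, *Hbb-b2* and *Hbb-bs* are close copies, and their 5 probe sets are listed for several of them, so no single gene is named. In bulk hearts, fewer red cells and less RNA per red cell cannot be told apart. The brightest beta set was at 11.53, 11.31 and 11.57 in *miR-1-1* null hearts, 11.75, 11.61 and 11.45 in double-heterozygous hearts and 11.63, 11.56 and 11.48 in wild-type hearts. The brighter alpha set was at 10.71, 10.20 and 10.63 in *miR-1-1* null hearts, 10.75, 10.75 and 10.38 in double-heterozygous hearts and 10.80, 10.63 and 10.40 in wild-type hearts. On both sets *miR-1-1* null replicate 5 was the lowest array and the genotypes overlapped.

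The other adult sets behaved alike. The second beta set was at 9.42, 9.08 and 9.34 in *miR-1-1* null hearts, 9.94, 9.43 and 9.26 in double-heterozygous hearts and 9.55, 9.48 and 9.32 in wild-type hearts. The third was at 7.87, 7.55 and 7.76 in *miR-1-1* null hearts, 8.03, 7.63 and 7.71 in double-heterozygous hearts and 8.19, 7.87 and 7.76 in wild-type hearts. The dimmer alpha set averaged 4.28 ± 0.29 in *miR-1-1* null, 4.42 ± 0.17 in double-heterozygous and 4.38 ± 0.052 in wild-type hearts (log2, SD, n = 3 each). *miR-1-1* null replicate 5 was lowest on all 5 adult sets. The highest array was double-heterozygous replicate 7 on 3 sets and wild-type replicate 1 on 2, which are the arrays with *Xist*.

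No adult set was called different between genotypes in limma's test over all probe sets, which does not show equal levels. Against wild-type hearts, log2 fold changes ran from -0.22 to -0.09 in *miR-1-1* null hearts and from -0.15 to 0.10 in double-heterozygous hearts. The intervals were wide. The 95% interval of the third beta set was -0.59 to 0.15 for *miR-1-1* null over wild-type hearts. That of the second beta set was -0.16 to 0.69 for double-heterozygous over *miR-1-1* null hearts. The *miR-1-1* null estimates moved with the arrays named above. Without *miR-1-1* null replicate 5 the 2 alpha sets were at 0.06 and 0.06 in place of -0.10 and -0.10, and the second beta set was at -0.07 in place of -0.17. Without the arrays carrying *Xist*, the brighter alpha set was at -0.0038 and the second beta set at -0.12.

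**Figure D3:**
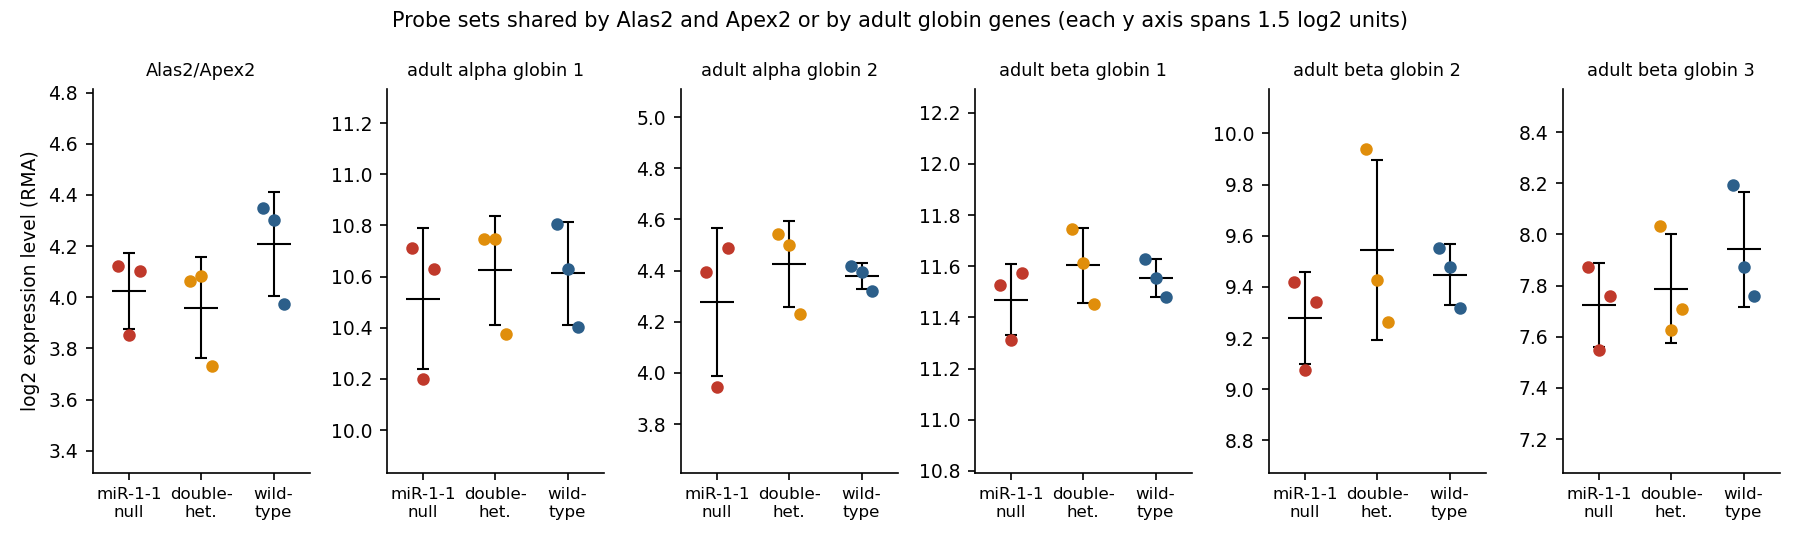
Log2 expression level (RMA) per array of the probe set shared by *Alas2* and *Apex2* and of the 5 adult globin probe sets, with the mean ± SD of 3 arrays per genotype. Each axis spans 1.5 log2 units from a different start, and in every adult panel the lowest point is a *miR-1-1* null array (replicate 5).

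Other globins of the mouse clusters were dim. *Hbq1a*, a theta globin, averaged 1.43 ± 0.031 in *miR-1-1* null, 1.58 ± 0.14 in double-heterozygous and 1.60 ± 0.63 in wild-type hearts, and *Hbq1b* averaged 2.92 ± 0.39, 2.80 ± 0.10 and 2.67 ± 0.19 in the same genotypes (log2, SD, n = 3 each). *Hbq1a* did not overlap between double-heterozygous and *miR-1-1* null hearts, as 4.3% of all genes did not in that direction, with a log2 fold change of 0.14 (adjusted p = 0.923, limma). *Hbb-bh2*, a neighbour of *Hbb-bh1* that was added after its values were seen, was at 1.95, 1.49 and 1.42 in *miR-1-1* null hearts, 3.11, 2.42 and 1.71 in double-heterozygous hearts and 1.13, 1.67 and 2.38 in wild-type hearts. Its spread within genotypes was as wide as the gap between them, and the log2 fold change of double-heterozygous over wild-type hearts was 0.69 (-0.17 to 1.54, adjusted p = 0.549, limma).

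How the members moved together was read over the 9 arrays. Among the 15 pairs of measured members, Pearson's r ran from -0.19 to 0.38 with a median of -0.02, and 6 pairs were above 0. No pair passed an exact permutation test at an unadjusted p of 0.05 (lowest adjusted p = 0.996). The embryonic globins, band 3, protein 4.2 and *Klf1* therefore had no detectable pattern in common on these arrays. Only 1 of them, *Slc4a1*, stood above the 95th percentile of the receptor genes, and all 6 had equal values on some arrays. Low correlations of such values cannot show that the genes vary separately.

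The adult globin sets, which share genes and were read from the same RNA, did vary together. Over their 10 pairs, r ran from 0.55 to 0.93 with a median of 0.76, and 9 pairs had an adjusted p under 0.05 in the exact permutation test. The rank correlation passed for 7. Without the 2 arrays farthest from the median, which always included *miR-1-1* null replicate 5, r was as low as 0.03 for a pair, so that part of the relation rests on those arrays. Within genotypes r was 0.57 to 0.92.

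Set against the mean of the adult globin sets, the measured members again showed no shared course, with r of -0.14 for *Hba-x*, 0.31 for *Hbb-y*, -0.49 for *Hbb-bh1*, 0.22 for *Slc4a1*, -0.19 for *Epb42* and 0.04 for *Klf1*. The *Alas2* and *Apex2* set had the highest value, r = 0.69 (exact permutation p = 0.0376, adjusted p = 0.263 over 7 relations) and rho = 0.72 (exact permutation p = 0.0369, adjusted p = 0.258). Its r was 0.91 without *miR-1-1* null replicate 5 and double-heterozygous replicate 7, and 0.86 within genotypes. The relation did not pass after adjustment.

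**Figure D4:**
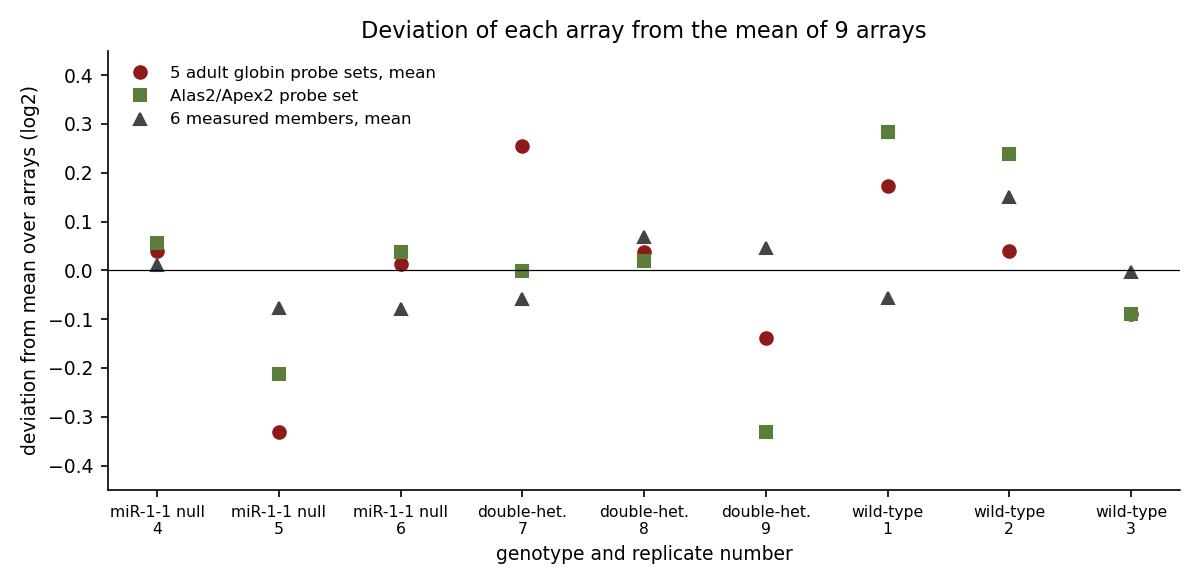
Deviation of each array from the mean of the 9 arrays, in log2 units, for the mean of the 5 adult globin sets, the *Alas2*/*Apex2* set and the mean of the 6 measured members. The adult globin mean is lowest on *miR-1-1* null replicate 5 (-0.33) and highest on double-heterozygous replicate 7 (0.26) and wild-type replicate 1 (0.17), while the mean of the members is highest on wild-type replicate 2 (0.15).

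The genes whose levels over the 9 arrays were most like the mean of the 6 measured members were *Gatm* (r = 0.94), *Snap47*, *H2-K2* and *Lrrcc1* (0.90 each), *Oat*, *Eef1akmt1* and *Pard3b* (0.87 each), *Pdia6* (0.86), *Tbcb* and *Nrxn2* (0.85 each), out of 11089 genes at or above the median level. *Gatm* encodes an enzyme of creatine synthesis and *Oat* one of ornithine breakdown. All globins with a probe set of their own lay below that level and so were not in the ranking. The mean was taken over centred values that were not scaled. *Hbb-y* and *Klf1*, with ranges of 0.92 and 0.81, therefore weigh most in it, and *Epb42* (0.17) and *Slc4a1* (0.32) least. As the members showed no common pattern, the ranking is not likeness to the set as a whole. The genes named are the top of a ranking over 9 points and carry no test.

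The wider red cell programme was read from 5 lists of haem synthesis, membrane, red cell enzyme and maturation, transcription factor, and iron uptake genes. Together they named 67 genes beyond the members, of which 63 were measured, and many of them serve other cells of the heart too. On their mean level over the arrays, 10 of 12 haem synthesis genes and 7 of 14 membrane genes stood above the 95th percentile of the receptor genes, against 1 of the 6 measured members. None passed an adjusted p of 0.05 in any comparison. In *miR-1-1* null against wild-type hearts, 1 gene was higher and 3 were lower at an unadjusted p under 0.05, or 1.59% and 4.76% of those measured, against 2.57% and 3.15% of all genes. In double-heterozygous hearts 1 was higher and 8 were lower, or 1.59% and 12.7% of those measured, beside the 4.45% and 6.15% of all genes given above. Between double-heterozygous and *miR-1-1* null hearts the counts were 1 and 3, or 1.59% and 4.76%, against 3.59% and 3.79% of all genes. The median log2 fold change of the 63 genes was -0.0083 for *miR-1-1* null and -0.045 for double-heterozygous hearts, against -0.0066 and -0.024 for all genes.

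Among the haem synthesis genes, *Alad*, which joins pairs of aminolevulinate molecules in the step after *Alas2*, was at 6.87, 6.53 and 6.72 in *miR-1-1* null hearts, 6.10, 6.43 and 6.36 in double-heterozygous hearts and 6.33, 6.22 and 6.12 in wild-type hearts. All 3 *miR-1-1* null arrays were above the other 6, as in 3.63% of all genes the *miR-1-1* null arrays were all above the wild-type ones. The log2 fold change over wild-type was 0.48, which does not pass over all genes (adjusted p = 0.723, limma). *Alas1*, the form of the *Alas2* enzyme that is used in all tissues, was at 6.62, 6.59 and 6.58 in *miR-1-1* null hearts, 6.46, 6.57 and 6.58 in double-heterozygous hearts and 7.04, 6.74 and 6.82 in wild-type hearts. Every mutant array was below every wild-type array (4.63% of all genes for *miR-1-1* null and 7.95% for double-heterozygous hearts), at log2 fold changes of -0.27 (adjusted p = 0.871) and -0.33 (adjusted p = 0.330, limma), from comparisons that share the wild-type arrays.

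Further along the pathway, *Ppox*, the enzyme that makes protoporphyrin, had a log2 fold change of 0.43 in double-heterozygous over wild-type hearts (adjusted p = 0.418). *Cpox* and *Urod*, which act before it, were at -0.27 and -0.26 (adjusted p = 0.433 and 0.454), and *Slc25a38*, the mitochondrial carrier that feeds glycine to the first step, was at -0.39 in *miR-1-1* null hearts (adjusted p = 0.872, limma for all). *Ppox*, at a mean level of 3.29 and with overlapping arrays, thus differed in sign from *Cpox* and *Urod*. Of 12 haem synthesis genes, 8 were below 0 and 4 above in double-heterozygous over wild-type hearts (55.4% and 44.6% of all genes). At an unadjusted p under 0.05 in limma, 3 were lower and 1 higher (6.15% and 4.45% of all genes). Arrays without overlap were lower for 4 and higher for 0 (7.95% and 5.15%). These genes were read from the same arrays, and none passed over all genes.

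Among membrane genes, *Aqp1*, the water channel of red cells and capillary endothelium, was at 5.21, 4.98 and 4.94 in *miR-1-1* null hearts, 4.60, 4.97 and 4.58 in double-heterozygous hearts and 5.13, 5.33 and 5.07 in wild-type hearts. Double-heterozygous arrays were all below the wild-type ones, as in 7.95% of all genes, with a log2 fold change of -0.46 (adjusted p = 0.322, limma). *Sptb*, beta spectrin, which heart muscle also makes, was at -0.36 (adjusted p = 0.449) and *Tmod1*, which caps actin filaments in red cells and in muscle, at -0.25 (adjusted p = 0.458) in the same comparison. *Slc4a1*, their partner in the red cell membrane, was at -0.08.

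*Tfrc*, the transferrin receptor that brings iron into dividing cells and young red cells, was at 6.71, 7.13 and 6.61 in *miR-1-1* null hearts, 6.92, 6.69 and 6.68 in double-heterozygous hearts and 6.92, 7.46 and 7.69 in wild-type hearts. Wild-type replicates 2 and 3 were above all mutant arrays, and wild-type replicate 1 was not. The log2 fold changes were -0.54 for *miR-1-1* null (adjusted p = 0.871) and -0.60 for double-heterozygous hearts (adjusted p = 0.359, limma). Of the remaining lists, *Xpo7*, an exportin that acts in the maturing red cell, was at -0.29 in double-heterozygous over wild-type hearts (adjusted p = 0.432). In double-heterozygous over *miR-1-1* null hearts *Sox6*, a repressor of *Hbb-y* in definitive red cells, was at -0.26 and *Car2*, a carbonic anhydrase of red cells, at 0.72 (adjusted p = 0.667 for both, limma). *Hbb-y* itself was at 0.17 there, with an interval that spans 0.

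**Figure D5:**
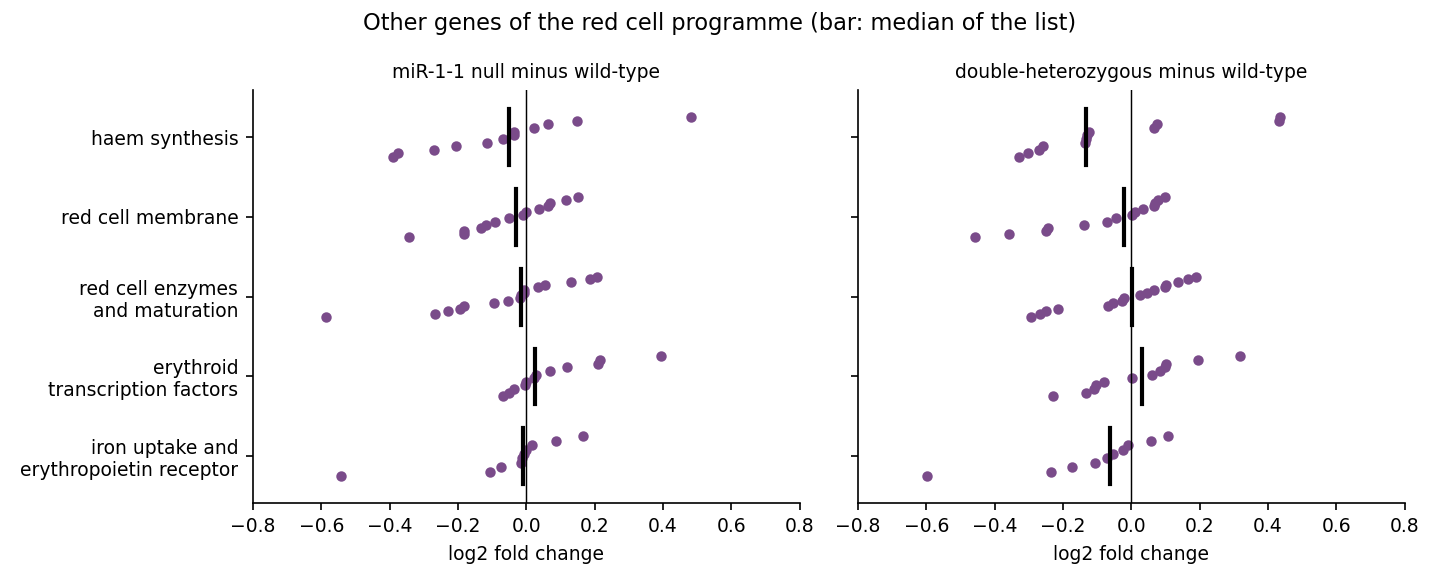
Log2 fold change of each measured gene of the 5 red cell lists, in *miR-1-1* null over wild-type hearts and in double-heterozygous over wild-type hearts, where each point is a gene and each bar is the median of its list. Points lie on both sides of 0 in every list, with list medians between -0.13 and 0.03.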

How the data were processed

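Total RNA of postnatal day 2 hearts was amplified and hybridized to Affymetrix mouse Gene ST 2.0 arrays, and the deposited values were log2 expression levels per probe set after RMA by the authors, whose processing notes name Affymetrix Power Tools 1.12.0. They were used as deposited. No counts underlie them, and the number of arrays limits the precision. Of 41345 probe sets, 23521 were listed for 1 gene symbol, 1820 for several and 16004 for none in the platform table. Symbols were updated by gene ID through the GRCm38.p6 gene table, where 23328 matched. For the array no source used here names a genome build. Coordinates stand only with RefSeq promoters.

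One limma 3.58.1 model (R 4.3.3), with 1 mean for each genotype, was fitted to 9 arrays and 22180 genes, or to all probe sets for shared ones, with Benjamini-Hochberg adjustment. Single members and correlations were tested with exact two-sided permutation tests. Of 28 planned pairs of members, 15 could be formed. The fit was tested on simulated data. The members and lists were chosen with earlier results of these data known. Named genes were the members, the adult globins, and up to 3 genes per list with the smallest F test p. Red cell genes of the lists at an unadjusted p under 0.05 were added after the values were seen, as were the correlations with adult globins. Python 3.11.15 with pandas 2.3.3, NumPy 2.4.6 and matplotlib 3.10.9 served for the figures and the remaining steps.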

Additional observations from a re-analysis of the deposited data

How the results depend on the processing

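Under 21 alternatives (other samples, moderation, test, filter, normalization, centring, probe set rules, array weights, the level of a Y-linked gene as a covariate, and each array left out), 0 members passed an adjusted p of 0.05 in any comparison, and the F test, run under 19 of them, called 0 as well. The lowest adjusted p of a member was 0.848 for *miR-1-1* null over wild-type, 0.426 for double-heterozygous over wild-type, 0.716 for double-heterozygous over *miR-1-1* null hearts, and 0.616 in the F test. *Klf1* reached an unadjusted p under 0.05 in limma under 2 alternatives for double-heterozygous and 1 for *miR-1-1* null over wild-type hearts. Its log2 fold change was -0.43 and -0.40 in these comparisons without wild-type replicate 3, and -0.16 and -0.12 without wild-type replicate 2. That of *Hbb-y* changed sign, from 0.36 without wild-type replicate 2 to -0.14 without the 2 arrays with *Xist* for double-heterozygous and from 0.19 without wild-type replicate 2 to -0.28 without wild-type replicate 1 for *miR-1-1* null over wild-type hearts. The median log2 fold change of the members ran from -0.14 to -0.0026, from -0.075 to 0.034 and from 0.041 to 0.076 in the 3 comparisons. Of 363 member fold changes recomputed, 14 changed sign and 0 passed an adjusted p of 0.05. None moved by over its own gene's SD between arrays of a genotype. Leaving out 1 of 3 arrays cannot move an estimate by more than this SD, so for those fits this outcome was fixed in advance. Many of the 363 could not move, so these counts overstate how stable the estimates are. Estimates stay the same under another moderation or test, and where only the 2 genotypes compared are fitted. The probe set rules also left them unchanged, as does leaving out an array of the genotype not compared. The filter at the median level of all genes kept only *Slc4a1*, so it gives no median. Fits of all probe sets and without the 2 arrays with *Xist* were chosen after seeing the data. No paired analysis was possible because the labels number the samples in 1 run and no number is shared between genotypes. Signals near background limit what could be seen of the embryonic globins, *Epb42* and *Klf1*.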

Other observations

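Markers of other blood cells and of liver were read beside the red cell genes, and none passed an adjusted p of 0.05 in limma. The neutrophil gene *S100a8*, a subunit of calprotectin, was at 7.89, 6.86 and 6.05 in *miR-1-1* null hearts, 6.16, 5.00 and 6.43 in double-heterozygous hearts and 6.46, 6.43 and 6.39 in wild-type hearts. *miR-1-1* null replicate 4 was the highest of the 9 arrays and double-heterozygous replicate 8 the lowest, while the wild-type arrays lay within 0.1 of each other. In double-heterozygous over *miR-1-1* null hearts its log2 fold change was -1.07 (adjusted p = 0.668, limma). Of the 12 neutrophil and myeloid genes measured, 2 stood above the 95th percentile of the receptor genes. In *miR-1-1* null over wild-type hearts 10 of the 12 were above 0 (48% of all genes), with a median of 0.24. In double-heterozygous over *miR-1-1* null hearts 10 were below 0 (54.5% of all genes), with a median of -0.22. The mean deviation of the list was 0.42 and 0.28 on *miR-1-1* null replicates 4 and 5 but -0.18 on replicate 6.

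Macrophage genes were lower by estimate in double-heterozygous hearts, where the median log2 fold change of 11 genes over wild-type was -0.28 against -0.024 for all genes. All 11 were below 0, against 55.4% of all genes. These genes were read from the same arrays, so they are not separate observations. Their mean deviation per array ran from -0.32 (replicate 8) to -0.04 in double-heterozygous hearts. In wild-type hearts it ran from 0.04 to 0.34 (replicate 2). In *miR-1-1* null hearts the median was -0.031 against -0.0066, with 3 of 11 above 0, against 48% of all genes. *Mrc1*, the mannose receptor of resident macrophages, was at 4.21, 3.87 and 4.10 in *miR-1-1* null hearts, 3.96, 3.72 and 4.06 in double-heterozygous hearts and 4.31, 4.50 and 4.43 in wild-type hearts. All mutant arrays were below the wild-type ones, at log2 fold changes of -0.35 (adjusted p = 0.871) and -0.50 (adjusted p = 0.248, limma). *Fcgr1*, an antibody receptor of macrophages, also had all mutant arrays below the wild-type arrays, beside the same 4.63% and 7.95% of all genes. Its log2 fold changes were -0.29 for *miR-1-1* null and -0.42 for double-heterozygous hearts (adjusted p = 0.873 and 0.330, limma).

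Among platelet genes, *Itga2b*, the integrin alpha IIb chain, was at 2.48, 2.58 and 2.48 in *miR-1-1* null hearts, 2.69, 2.48 and 2.48 in double-heterozygous hearts and 2.21, 2.30 and 2.30 in wild-type hearts. All mutant arrays were above the wild-type ones (adjusted p = 0.871 and 0.347, limma), as in 3.63% of all genes for *miR-1-1* null and 5.15% for double-heterozygous hearts. The value of 2.48 was identical on 4 arrays. Its mean level of 2.45 lies below the 95th percentile of the receptor genes. *Ppbp*, a platelet chemokine, had a log2 fold change of the opposite sign in double-heterozygous over wild-type hearts (-0.49, adjusted p = 0.357, limma). The 9 platelet genes measured had a median of -0.028 there, with 5 of them below 0, against 55.4% of all genes. The 8 lymphocyte genes measured had mean levels of 1.47 to 1.95, in the range of the receptor genes. Of the 8 liver genes measured, 3 stood above the 95th percentile of the receptor genes, at up to 4.49. *Apoa2*, an apolipoprotein of the liver, averaged 3.44 and *Afp*, which the fetal liver makes, 1.51.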
